A study of Mus musculus with 15 samples.

Results

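The cytosolic ribosomal protein genes were followed through single cells and bulk cortex of the mouse kidney. They were taken from the platform annotation as the probe sets that carry a single gene symbol of the form Rpl or Rps with a number, Rplp or Rpsa, without the Rps6k kinases. This gave 61 genes, 38 of the large and 23 of the small ribosomal subunit, out of 19938 genes that a single-symbol probe set reads. Where several probe sets read the same gene, the brightest over all 15 arrays stood for it.

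The study profiled 4 groups on Affymetrix mouse gene arrays. The first holds 4 single cells, numbered 14, 15, 16 and 19, from metanephric mesenchyme (MM), from which the nephrons of the embryonic kidney form. They were picked with glass needles at E11.5 from mice of the Tg(Crym-EGFP)GF82Gsat line, of unspecified strain and unknown sex. The second holds 5 single juxtaglomerular (JG) cells, numbered 4 to 8, from adult male Ren1c-YFP mice, in which the renin gene drives the fluorescent reporter. They were released with collagenase A and trypsin and chosen as fluorescent cells beside glomeruli, and a protocol text also speaks of a Ren1d GFP line. Adult male Ren1c-YFP cortex, a lysate of mixed cell types, gave the other two groups. In diluted cortex, 3 libraries (A, B, C) were diluted and amplified with SCAMP, the protocol used on the cells, with 32 rounds recorded. In standard-labelled cortex, 3 libraries (A, B, C) were labelled with the NuGEN WT-Ovation Pico kit, with 1 round recorded. No treatment or gene deletion is named for any group. The labels tie no cell to an animal. The MM cells and the JG cells were therefore taken as 1 sample each, and comparisons with them carry no test. Nothing says that the cortex libraries came from separate animals, so a p-value here speaks of the spread between libraries alone, which may be technical.

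The ribosome is built from a large and a small subunit, each a scaffold of ribosomal RNA covered with proteins that are mostly present once per particle. The small subunit reads the messenger RNA and the large subunit joins the amino acids, and cells need the proteins in matched amounts. Their messengers are among the most abundant of almost every cell, and most begin with a short run of pyrimidine bases (C or T), the terminal oligopyrimidine tract, through which growth signals set their translation.

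Values are log2 probe set signals, and the highest in the whole table is 13.98. Background was set on each array as the 99th percentile of 1194 olfactory and vomeronasal receptor genes, which are largely silent outside sensory tissue. It lay between 7.15 and 7.57 in MM cells, between 7.56 and 7.94 in JG cells, between 6.19 and 6.30 in diluted cortex and between 6.31 and 6.52 in standard-labelled cortex. Of all genes, 10.8% to 20.8% passed it in MM cells, between 6.70% and 14.2% in JG cells, between 48.2% and 50.4% in diluted cortex and between 43.7% and 48.1% in standard-labelled cortex. Few defining markers passed background in the cells. Of 7 measured JG and mural markers, 0 to 1 passed background in MM cells, between 0 and 3 in JG cells, 6 in diluted cortex and between 3 and 5 in standard-labelled cortex. Gja4 passed in 4 JG cells, Rgs5 in 3, Acta2 in 2 and Des in 1, and Des also in 2 MM cells, while Myh11, Tagln and Cnn1 passed in 0 cells. JG cells 4 to 8 passed 2, 0, 2, 3 and 3 of the 7, so JG cell 5 had none, and renin itself was not analysed here. Their summed signal (log2) was between 9.43 and 11.73 in MM cells, between 9.57 and 13.49 in JG cells, between 10.1 and 10.85 in diluted cortex and between 9.76 and 10.53 in standard-labelled cortex. Of 10 mesenchyme markers, 2 to 4 passed in MM cells and between 0 and 5 in JG cells, and JG cell 8, with 5, passed more than any MM cell. Six2, a nephron progenitor factor, passed in 2 MM cells and 0 JG cells, Hoxd11 in 4 MM and 2 JG cells and Cited1 in 3 MM and 4 JG cells. Osr1 and Wt1 each passed in 1 MM and 1 JG cell, Meox1 in 1 MM cell and Sall1 in 1 JG cell, and Eya1, Itga8 and Hoxa11 in 0 cells. Of 9 proximal tubule markers, 0 to 1 passed in MM cells, between 0 and 2 in JG cells and all 9 in every cortex library. Their summed signal was 12.84 in JG cell 5, where Miox was at 12.63 and Slc22a6 at 8.74, and between 9.72 and 9.93 in the other JG cells. Of 5 endothelial markers, Plvap passed in 4 MM and 2 JG cells and Emcn in MM cell 14 alone, at 11.77. The summed endothelial signal of that cell was 11.9, against 11.18 to 11.25 in diluted cortex. Both collecting duct markers on a list of 2 passed in every MM cell and 1 to 2 of them in JG cells, while 0 of 4 distal tubule and 0 of 4 leukocyte markers passed in any cell. The part of other cell types in the results was not tested.

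The genes are shown first by the bases around their transcription start, where the pyrimidine tract would lie. In RefSeq (GRCm38.p6), 49 of the 61 genes matched a promoter entry. A run of at least 8 bases that are each C or T, on the strand of the gene and within 25 bases either side of the RefSeq start, was found in 20 of them (40.8%). Over all 27025 promoters of the same table, 5250 (19.4%) held such a run. The 30 bases around the run are printed for the 3 genes with a run that were bright in every JG cell and for the 5 with a run that were at background in at least 2 JG cells, with the run in capitals. Coordinates are those of the 30 bases, and every line reads 5′ to 3′ on the strand of the gene.
Rpl13, chr8:123102324-123102353, plus strand, bright in every JG cell: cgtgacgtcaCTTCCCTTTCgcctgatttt
Rps9, chr7:3704024-3704053, plus strand, bright in every JG cell: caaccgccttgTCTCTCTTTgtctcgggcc
Rps10, chr17:27635227-27635256, minus strand, bright in every JG cell: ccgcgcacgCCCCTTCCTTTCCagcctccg
Rpl4, chr9:64173361-64173390, plus strand, at background in 2 JG cells: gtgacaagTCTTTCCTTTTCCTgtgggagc
Rpl5, chr5:107900497-107900526, plus strand, at background in 2 JG cells: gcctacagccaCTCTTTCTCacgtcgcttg
Rpl38, chr11:114668568-114668597, plus strand, at background in 2 JG cells: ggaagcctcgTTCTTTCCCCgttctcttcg
Rps25, chr9:44407684-44407713, plus strand, at background in 2 JG cells: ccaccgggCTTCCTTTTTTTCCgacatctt
Rps27l, chr9:66946053-66946082, plus strand, at background in 4 JG cells: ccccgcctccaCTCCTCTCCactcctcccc
The runs of these genes were 9 to 14 bases long. In Rps27l a second run of 9 bases follows the one in capitals, which is the first of equal length. Of the genes bright in every JG cell 3 of 8 with an entry held a run, against 5 of 13 among the genes at background in at least 2 JG cells. The strings are a description of the letters in these windows and do not show where transcription started in the samples.

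Ribosomal protein probe sets were bright on most arrays, and JG cells 4 and 5 stood apart. The median of all 61 was between 12.35 and 12.56 in MM cells, between 8.50 and 12.35 in JG cells, between 12.13 and 12.17 in diluted cortex and between 11.95 and 12.08 in standard-labelled cortex. Large subunit medians were 12.32, 12.47, 12.50 and 12.48 in MM cells 14, 15, 16 and 19. They were 7.49, 8.39, 12.34, 12.39 and 12.05 in JG cells 4 to 8, 12.11, 12.15 and 12.15 in diluted cortex and 11.97, 12.04 and 12.02 in standard-labelled cortex. Small subunit medians were 12.43, 12.49, 12.56 and 12.43 in MM cells and 9.42, 11.59, 12.27, 12.34 and 12.56 in JG cells 4 to 8. The corresponding values were 12.15, 12.17 and 12.28 in diluted cortex and 11.91, 12.08 and 12.02 in standard-labelled cortex. JG cells 4 and 5 were the low arrays for both subunits, while JG cells 6 to 8 lay near diluted cortex. JG cell 5 is the cell that passed 0 JG markers and had the high tubule signal, whose part in these values was not tested.

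**Figure D1:**
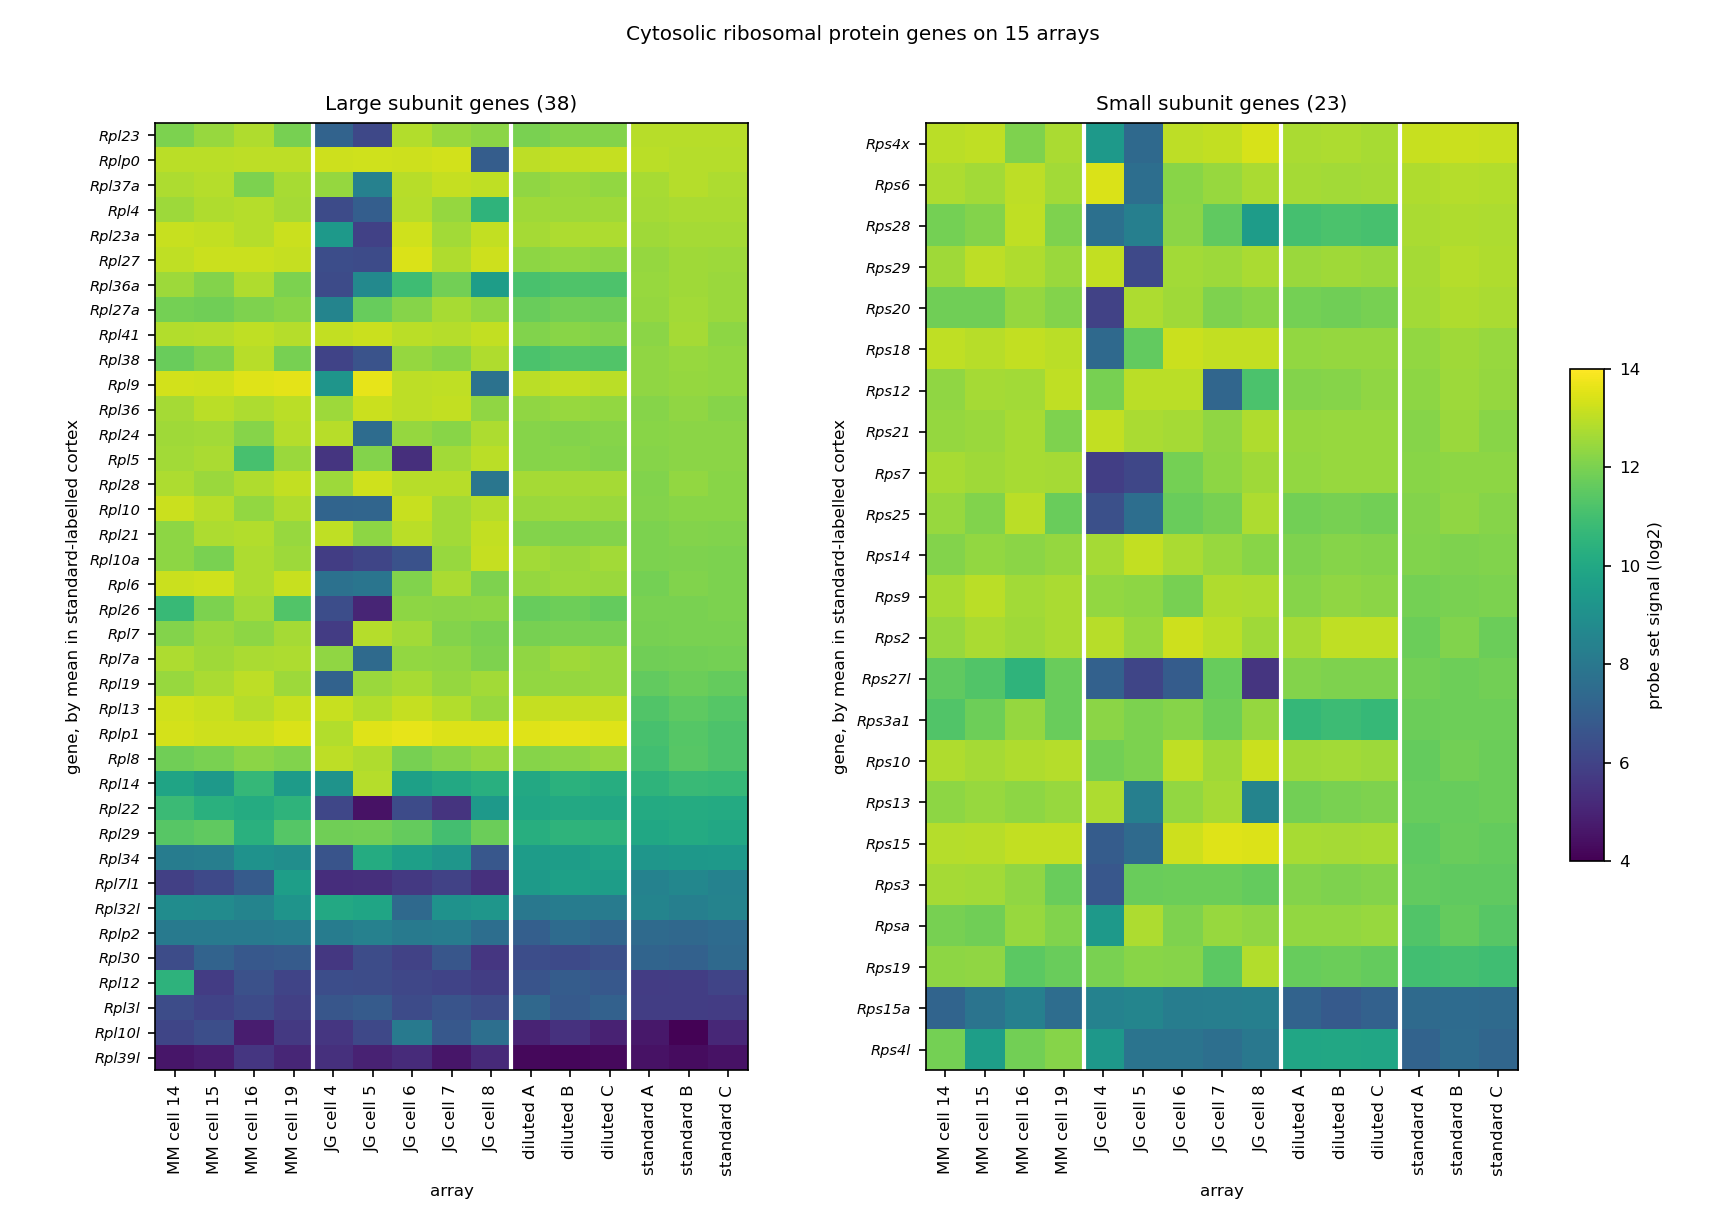
Probe set signal (log2, colour) of the 38 large and 23 small subunit genes (rows, ordered by their mean in standard-labelled cortex) on the 15 arrays (columns, white lines between the groups). MM cells and cortex libraries are evenly bright in the upper rows, while dark cells appear in JG cells 4 and 5 for many genes and in JG cells 6 to 8 for few.

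Of the 61 genes, 50 reached 10 log2 units on average in standard-labelled cortex, 29 of the large and 21 of the small subunit. The other 11 (Rpl39l, Rpl10l, Rpl3l, Rpl12, Rpl30, Rpl7l1, Rps15a, Rplp2, Rpl32l, Rpl34 and Rps4l) were read by probe sets that stayed below that level there, and 6 of the 11 carry the symbol of a related copy of a subunit gene (Rpl39l, Rpl10l, Rpl3l, Rpl7l1, Rpl32l and Rps4l). In MM cells the 50 genes were bright, at 10 or more, almost throughout. MM cells 14, 15 and 19 had 49 bright and 1 in between, MM cell 16 had all 50 bright, and 0 of the 50 were at background in any MM cell. The gene in between was Rpl14, at 9.84, 9.42 and 9.48. In the same cells 44.2%, 57.0%, 72.4% and 45.2% of all 1332 genes that reached 10 in standard-labelled cortex were at background. MM cell 16 thus had the largest background share of all genes among the MM cells and still had every one of the 50 bright.

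In JG cells the same 50 genes were bright in some cells and at background in others. At background were 20 in JG cell 4 (12 large and 8 small), 19 in JG cell 5 (12 and 7), 4 in JG cell 6 (3 and 1), 2 in JG cell 7 and 2 in JG cell 8 (1 and 1 in each). Bright were 23, 27, 45, 48 and 42 in JG cells 4 to 8. Among all 1332 genes, 83.5%, 84.5%, 79.0%, 69.5% and 78.2% were at background in JG cells 4 to 8. The shares of the ribosomal protein genes were 40%, 38%, 8%, 4% and 4% and lay below those of all genes in each JG cell. Among the 609 genes that reached 11 in standard-labelled cortex, 46 of them ribosomal protein genes, the shares of all genes were still 75.7%, 77.5%, 68.3%, 57.3% and 68.6%. JG cell 5, with 6.70%, and JG cell 4, with 9.04%, had the lowest shares of all genes above background, and the part of overall detection in the ribosomal protein values was not tested.

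Most values of the 50 genes were either bright or at background. Over the 5 JG cells there were 250 values, of which 185 were bright, 47 at background and 18 in between. Over the 4 MM cells there were 200, of which 197 were bright, 0 at background and 3 in between. In each JG cell the bright genes and those at background lay far apart. The median over the bright genes was 12.78, 12.76, 12.65, 12.47 and 12.67 in JG cells 4 to 8, and that over the genes at background 6.37, 6.56, 6.40, 6.39 and 6.23.

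**Figure D2:**
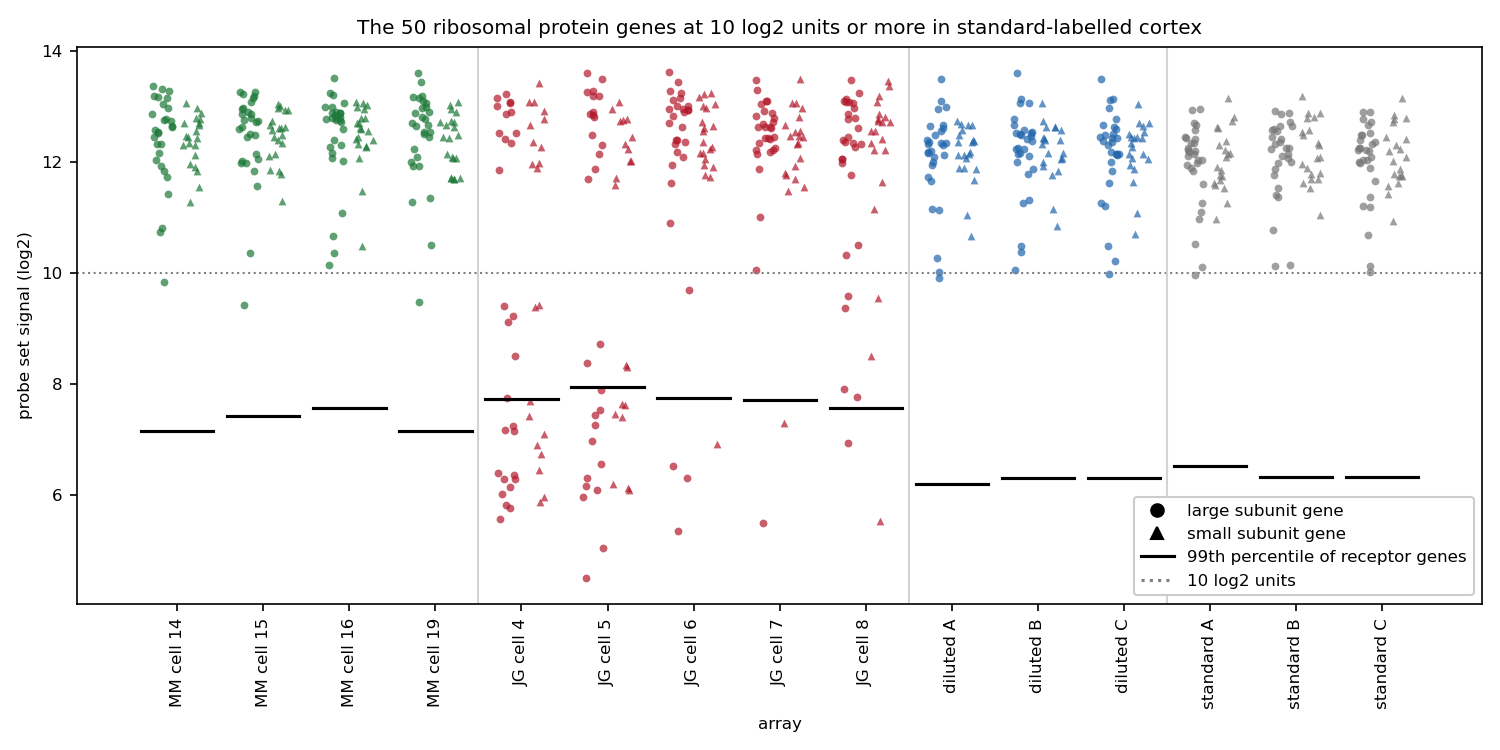
Probe set signal (log2, vertical axis) of the 50 ribosomal protein genes that reached 10 log2 units in standard-labelled cortex, on each array (horizontal axis), with circles for large and triangles for small subunit genes. Black bars mark the 99th percentile of receptor genes, and in JG cells 4 and 5 points lie both above 10 (23 and 27 genes) and at or below the bar (20 and 19), with 7 and 4 in between.

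JG cells shared part of the genes at background. Of the 20 genes at background in JG cell 4 and the 19 in JG cell 5, 12 were shared, 60% and 63.2% of the lists. In JG cell 6 the genes at background were Rpl5, Rpl10a, Rpl22 and Rps27l, in JG cell 7 Rpl22 and Rps12, and in JG cell 8 Rplp0 and Rps27l. All 4 genes of JG cell 6 were also at background in JG cell 4, and 3 of the 4 in JG cell 5. No overlap to set these counts against was computed. Over the 5 cells, 21 of the 50 genes were at background in 0 cells, 16 in 1, 10 in 2, 1 in 3 and 2 in 4. The 14 that were bright in all 5 JG cells were 7 of the 29 large and 7 of the 21 small subunit genes. They were Rpl8, Rpl13, Rpl21, Rpl29, Rpl36, Rpl41 and Rplp1, and Rps2, Rps3a1, Rps9, Rps10, Rps14, Rps19 and Rps21. These states are those of the brightest probe set. Another probe set of Rps10 was at background in JG cell 5, at 7.57. The lowest probe sets were also under 10 for Rps10 and Rps14 in JG cell 4 (8.80 and 9.69) and for Rpl21 in JG cell 5 (9.40). At background in 3 or 4 JG cells were Rpl10a, Rpl22 and Rps27l, and in 2 Rpl4, Rpl5, Rpl10, Rpl23, Rpl26, Rpl27, Rpl38, Rps7, Rps15 and Rps25.

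**Figure D3:**
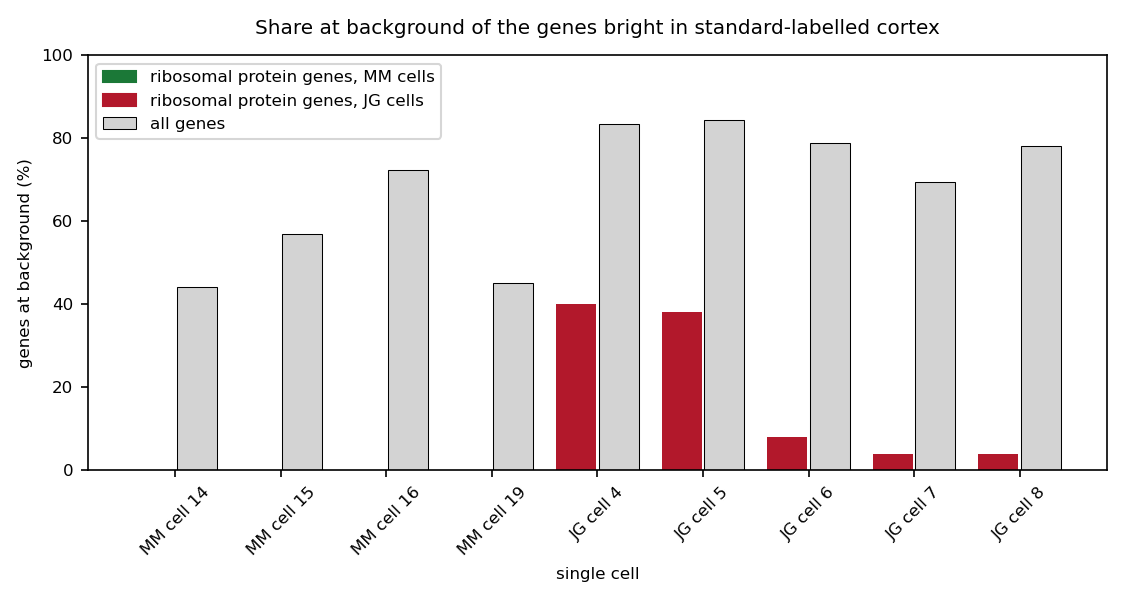
Share of genes at background (vertical axis, percent) in each single cell (horizontal axis) for the 50 ribosomal protein genes (coloured bars) and all 1332 genes (grey bars) that reached 10 log2 units in standard-labelled cortex. The ribosomal protein share is 0 in all MM cells, 40% and 38% in JG cells 4 and 5 and at most 8% in JG cells 6 to 8, below the grey bar in every cell.

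Most of these genes have several probe sets, which read the same states. Of the 50, 38 have several probe sets that reach 10 in standard-labelled cortex, which makes 190 pairs of gene and JG cell. In 173 of the pairs all probe sets lay on the same side of background. Where the brightest was at background, all were in 27 of 33 pairs, and where it was above, none was at background in 146 of 157. Probe sets of a gene can share sequence with each other and with processed pseudogenes, so they are not independent readings.

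The stalk of the large subunit recruits the elongation factors, and is formed by Rplp0 at its base and the P proteins Rplp1 and Rplp2. Rplp0 was at 12.97, 12.95, 12.99 and 12.99 in MM cells, 13.22, 13.29, 13.25, 13.30 and 6.93 in JG cells 4 to 8, 12.99, 13.07 and 13.13 in diluted cortex and 12.95, 12.87 and 12.90 in standard-labelled cortex. The gene was thus at background in JG cell 8 alone and between 12.87 and 13.30 on all other arrays. Rplp1 was at 13.37, 13.23, 13.24 and 13.44 in MM cells, 12.86, 13.50, 13.62, 13.49 and 13.48 in JG cells, 13.50, 13.60 and 13.50 in diluted cortex and 11.10, 11.37 and 11.19 in standard-labelled cortex. All MM, JG and diluted cortex arrays lay above the 3 of standard-labelled cortex. Rplp2 stayed dim on all arrays. It was between 8.10 and 8.18 in MM cells, between 7.60 and 8.40 in JG cells, between 7.04 and 7.49 in diluted cortex and between 7.37 and 7.51 in standard-labelled cortex. It is read by 1 probe set, and probe sets of different genes can differ in brightness at equal RNA.

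Rpl5 carries the 5S ribosomal RNA into the large subunit, and unassembled Rpl5 binds Mdm2, the ligase that holds p53 low. It was at 12.63, 12.74, 11.08 and 12.51 in MM cells and at 5.56, 12.15, 5.34, 12.63 and 12.97 in JG cells 4 to 8. It was at 12.20, 12.24 and 12.15 in diluted cortex and 12.20, 12.25 and 12.26 in standard-labelled cortex. JG cells 4 and 6 were at background and the other JG cells at cortex level, the widest range of any of the 61 genes over JG cells, 7.63.

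Around the exit of the peptide tunnel sit Rpl19, Rpl22, Rpl23a and Rpl26, the measured members of a list of 7. All 4 passed background in every MM cell and in every cortex library, against 1, 1, 3, 3 and 4 in JG cells 4 to 8. In these JG cells 34, 35, 51, 52 and 53 of all 61 ribosomal protein genes passed. The shares of all 19938 genes that passed were 9.0%, 6.7%, 9.7%, 10.7% and 14.2%. Rpl22, an RNA binding protein that is dispensable for the ribosome itself, was at 10.81, 10.36, 10.14 and 10.50 in MM cells and 6.14, 4.49, 6.30, 5.49 and 9.37 in JG cells 4 to 8. It was at 9.90, 10.05 and 9.98 in diluted cortex and 10.10, 10.14 and 10.13 in standard-labelled cortex. Every JG cell lay below every other array. Rpl26, which also binds the p53 messenger, was at 10.73, 12.02, 12.60 and 11.28 in MM cells and 6.38, 5.04, 12.32, 12.25 and 12.32 in JG cells 4 to 8. It was at 11.66, 11.79 and 11.63 in diluted cortex and 11.98, 11.99 and 12.01 in standard-labelled cortex, so that only JG cells 4 and 5 stood low. Rpl23a was low in the same pair of cells, at 9.40 and 5.95, and Rpl19 in JG cell 4 alone, at 7.15.

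At the entry of the messenger channel of the small subunit lie Rps2 and Rps3. Rps2 was at 12.45, 12.74, 12.56 and 12.72 in MM cells, 12.93, 12.45, 13.22, 12.97 and 12.56 in JG cells, 12.66, 13.06 and 13.05 in diluted cortex and 11.77, 12.10 and 11.75 in standard-labelled cortex. Rps3 was at 12.67, 12.62, 12.33 and 11.70 in MM cells, 6.73, 11.71, 11.77, 11.77 and 11.64 in JG cells, 12.13, 12.06 and 12.15 in diluted cortex and 11.58, 11.54 and 11.56 in standard-labelled cortex. Rps2 was present in every cell, and Rps3 was at background in JG cell 4 alone. Of the 16 genes at background in exactly 1 JG cell, 3 more are given as examples, chosen after their values were seen. Rps29 was at 6.19 in JG cell 5 and between 12.55 and 13.09 in the other JG cells, and Rpl7 at 5.76 in JG cell 4 and between 11.98 and 12.90 in the others. Rps20 was at 5.96 in JG cell 4 and between 12.07 and 12.76 in the others.

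Of 17 genes on a list of those mutated in Diamond-Blackfan anaemia, a human failure of red cell production, 8 were measured. These were Rpl5, Rpl26, Rpl27, Rps7, Rps10, Rps19, Rps28 and Rps29. All 8 passed background in every MM cell and cortex library, against 3, 4, 7, 8 and 8 in JG cells 4 to 8. Of all 61 ribosomal protein genes, 34, 35, 51, 52 and 53 passed in these JG cells. Of all 19938 genes, 9.0%, 6.7%, 9.7%, 10.7% and 14.2% did. Rps19, the gene most often mutated, was at 12.31, 12.34, 11.48 and 11.72 in MM cells and 11.98, 12.23, 12.17, 11.48 and 12.86 in JG cells. It was at 11.67, 11.77 and 11.64 in diluted cortex and 10.97, 11.04 and 10.93 in standard-labelled cortex, with no cell low. Rps7, another binder of Mdm2, was at 12.70, 12.58, 12.71 and 12.67 in MM cells and 5.87, 6.12, 11.91, 12.32 and 12.56 in JG cells 4 to 8. It was at 12.37, 12.44 and 12.46 in diluted cortex and 12.22, 12.30 and 12.31 in standard-labelled cortex, so that JG cells 4 and 5 were at background and JG cells 6 to 8 near the cortex level.

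Several ribosomal proteins have a second gene, some of them used in a single tissue. Rps27l, a relative of Rps27 that p53 induces in human cells, was at 11.55, 11.30, 10.49 and 11.72 in MM cells and 7.09, 6.08, 6.91, 11.69 and 5.53 in JG cells 4 to 8. It was at 12.13, 12.08 and 12.08 in diluted cortex and 11.86, 11.80 and 11.88 in standard-labelled cortex. It was thus present in all MM cells and in JG cell 7, and at background in the other 4 JG cells. Rpl7l1, a relative of Rpl7, was at 5.88, 6.20, 6.87 and 9.61 in MM cells and 5.31, 5.35, 5.65, 5.99 and 5.38 in JG cells. It was at 9.44, 9.69 and 9.55 in diluted cortex and 8.45, 8.61 and 8.43 in standard-labelled cortex, so that MM cell 19 was the only cell at cortex level. Rpl7 itself was at 12.16, 12.48, 12.31 and 12.65 in MM cells, 5.76, 12.90, 12.63, 12.14 and 11.98 in JG cells, 11.95, 12 and 12 in diluted cortex and 11.95, 12 and 11.99 in standard-labelled cortex.

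Rps4l, a relative of Rps4x, was at 11.91, 9.62, 11.86 and 12.20 in MM cells and 9.33, 7.84, 7.83, 7.65 and 8.01 in JG cells 4 to 8. It was at 9.90, 10.01 and 9.92 in diluted cortex and 7.20, 7.53 and 7.32 in standard-labelled cortex. Every MM cell lay above every JG cell, and diluted above standard-labelled cortex in every library. Rps4x was at 12.98, 13.04, 12.07 and 12.74 in MM cells, 9.38, 7.40, 13.02, 13.07 and 13.38 in JG cells, 12.74, 12.75 and 12.70 in diluted cortex and 13.16, 13.20 and 13.16 in standard-labelled cortex. The tissue-restricted copies stayed dim. Rpl39l, a testis relative of Rpl39, was between 4.62 and 5.58 in MM cells, between 4.61 and 5.39 in JG cells, between 4.18 and 4.25 in diluted cortex and between 4.34 and 4.49 in standard-labelled cortex. Rpl3l, the striated muscle relative of Rpl3, was between 5.90 and 6.33 in MM cells, between 6.28 and 6.88 in JG cells, between 6.83 and 7.36 in diluted cortex and between 5.76 and 5.82 in standard-labelled cortex. Rpl10l, the testis relative of Rpl10, passed background in JG cells 6 and 8 only, at 8.09 and 7.66, and on 0 of the MM and cortex arrays. Rpl10 was at background in JG cells 4 and 5, at 7.24 and 7.26, and between 12.61 and 13.15 in the other JG cells and between 12.39 and 13.20 in MM cells.

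Pairs of MM cells gave higher correlations over the ribosomal protein genes than pairs of JG cells. The correlation of the 61 genes between pairs of MM cells was 0.926 to 0.958, against 0.748 to 0.835 over all 35557 probe sets. Between JG cells it was 0.287 to 0.792 for the 61 genes and 0.754 to 0.839 over all probe sets. Between libraries of the same cortex group it was at least 0.997 for the 61 genes. These correlations are over genes or probe sets of shared arrays and describe the arrays only. The 61 genes include bright and dim ones, so their correlation also reflects that split. Rpl12, which lies at the base of the stalk, had the widest range over MM cells, at 10.48 in MM cell 14 and between 5.79 and 6.48 in the other MM cells. Its probe set was between 5.81 and 6.36 in JG cells, between 6.61 and 6.90 in diluted cortex and between 5.78 and 6.04 in standard-labelled cortex, so MM cell 14 was the only bright array.

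Set against diluted cortex, a mixture of cell types amplified in the same way, JG cells had lower group means for most ribosomal protein genes. Medians over cells did not show this, and the share lower by 1 log2 unit was near that of all genes. The median difference, JG minus diluted, was -0.83 for large and -0.96 for small subunit genes. It was -0.43 over the 13402 genes whose higher group mean reached the median of the arrays compared. The subunit medians were taken without this filter, and without it the median over all genes was 0.56. Of 59 ribosomal protein genes that passed this filter, 27 (17 large and 10 small) were lower by at least 1 log2 unit, 45.8%, where 40.9% of all genes were, and 5 were higher, 8.47%, where 27.9% of all genes were. In cortex, the share of a cell type and the RNA per cell cannot be told apart. JG cells 4 and 5 were the low arrays. Without them the medians were 0.09 and 0.17 and 11 genes were lower, but they were left out after their low values were seen, so the means of the rest had to be higher and this tests nothing. Rps27l then had a measured difference from diluted cortex of -4.05 and Rpl22 of -2.92, both with JG cells at background among those left. Without JG cell 4 alone, the medians were -0.62 and -0.39, and without JG cell 5 alone -0.63 and -0.52. The median over cells in place of the mean gave 0.13 and 0.08 and 8 genes lower. Scales also differed between these groups, as JG cells exceeded diluted cortex by 1.02 for receptor genes and by 0.77 for all probe sets. With each array set to its receptor median, 45 ribosomal protein genes were lower by at least 1 log2 unit and 0 were higher. Shares over all genes were not computed for these alternatives, so their counts cannot be set against other genes.

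The lowest differences from diluted cortex were those of Rps27l, Rpl7l1, Rpl10a, Rpl22 and Rpl4. Rpl7l1 averaged 5.54 ± 0.29 in JG cells (SD over 5 cells) and 9.56 ± 0.13 over the 3 diluted cortex libraries (SD), with no overlap. It was not above background in any JG cell, so its measured difference of -4.03 is no exact value. Taken against the background level of each JG array, it was at least 3.55-fold lower in JG cells. Rps27l had a measured difference of -4.64 and Rpl22 of -3.62, also without overlap. Both were at background in 4 of the 5 JG cells, so these sizes are not exact either. Rpl10a, of the stalk where spent transfer RNA leaves, was at 5.81, 6.09, 6.51, 12.45 and 13.13 in JG cells 4 to 8 and 12.62, 12.49 and 12.63 in diluted cortex. Rpl4, which lines the peptide tunnel, was at 6.28, 6.97, 12.90, 12.43 and 10.50 in JG cells and 12.56, 12.53 and 12.59 in diluted cortex. Both genes overlapped with diluted cortex, with Rpl10a at background in 3 JG cells and Rpl4 in 2. Higher in JG cells by at least 1 log2 unit were Rpl10l with a measured 1.72, Rps3a1 by 1.39, Rps15a by 1.32, Rpl29 by 1.21 and Rpl32l by 1.03. Rpl10l passed background in 2 of 5 JG cells and in 0 of 3 diluted cortex libraries, and its JG mean of 6.85 lay below the background of the JG arrays, so no fold is given for it. Of the others, Rps3a1, a small subunit protein at the messenger exit, was at 12.27, 12.02, 12.17, 11.80 and 12.41 in JG cells, 10.66, 10.85 and 10.70 in diluted cortex and 11.74, 11.78 and 11.78 in standard-labelled cortex. The JG cells were close to standard-labelled cortex for this gene, and diluted cortex was the low group.

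Against diluted cortex, few ribosomal protein genes of the MM cells differed by 1 log2 unit. The median difference, MM minus diluted, was 0.33 for large and 0.24 for small subunit genes and -0.38 over 12960 genes tested. The subunit medians were taken without the filter, and without it the median over all genes was 0.42. Of 59 ribosomal protein genes 4 were higher by at least 1 log2 unit, 6.78%, against 16.6% of all genes, and 1 was lower, 1.69%, against 37.7% of all genes. The higher genes were Rps4l by 1.46, Rps28 by 1.2, Rpl36a by 1.17 and Rps3a1 by 1.06, and the lower was Rpl7l1 at -2.42, above background in 1 of the 4 MM cells. The sign of the medians depended on the scale. Receptor genes stood 0.81 and all probe sets 0.62 higher in MM cells, and relative to the receptor median of each array the medians were -0.52 and -0.61. Relative to the median of all probe sets they were -0.04 and -0.13. The counts turned as well, to 0 higher and 10 lower on the receptor scale and to 1 higher and 4 lower on that of all probe sets. Shares over all genes on these scales were not computed.

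MM cells had higher group means than JG cells for most ribosomal protein genes. The median difference, MM minus JG, was 0.99 for large and 1.28 for small subunit genes, against -0.21 over 11848 genes tested. The subunit medians were again unfiltered, and the unfiltered median over all genes was -0.19. Of 60 ribosomal protein genes that passed the filter 32 (19 large and 13 small) were at least 1 log2 unit higher in MM cells, 53.3%, where 14.5% of all genes were. Rpl12 and Rpl7l1, among the 32, were above background in 1 MM cell and 0 JG cells. Rpl10l was the only gene lower by that much, 1.67% of the 60, where 1.82% of all genes were. It was above background in 0 MM cells and 2 JG cells, so no fold is given for it. The largest measured differences were those of Rpl22, 4.09, Rps27l, 3.81, Rpl10a, 3.61, Rps4l, 3.27, and Rps7, 2.91. Rpl22 and Rps27l were at background in 4 JG cells, Rpl10a in 3 and Rps7 in 2, so the sizes and order of these differences are not exact. Of these, Rpl22, Rps4l and Rps7 did not overlap between the groups. For Rps7 the groups nearly met, with MM cell 15 at 12.58 and JG cell 8 at 12.56. The share of all genes without overlap was not computed. Without JG cells 4 and 5, again left out for their low values and therefore no test, the medians were 0.09 (large) and -0.1 (small) and 14 genes were higher. Without JG cell 4 alone the medians were 0.87 and 0.61, and without JG cell 5 alone 0.83 and 0.52. Medians over cells in place of means gave -0.04 and 0.01, with 9 genes higher. For these alternatives too, shares over all genes were not computed. The groups also differ in age, line and dissociation, which cannot be told apart from cell type.

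Between the cortex libraries prepared in different ways, single ribosomal protein genes differed in either direction. Diluted and standard-labelled cortex were compared with limma over 19531 probe sets whose higher group mean reached the median of the 6 arrays, and 59 of the 61 genes entered, without Rpl10l and Rpl39l. At a Benjamini-Hochberg adjusted p under 0.05, 25 (15 large and 10 small) were higher in diluted cortex, 42.4%, where 38.0% of all probe sets were. A further 16 (9 large and 7 small) were lower, 27.1%, where 36.7% of all probe sets were, and 18 did not pass the test. The median log2 difference of the genes was 0.11, and its median size regardless of sign 0.42, against 0.74 over all probe sets tested. With arrays set to the median of all probe sets, 31 were higher and 9 lower, which is 77.5% higher among the calls in place of 61.0%. The calls over all probe sets moved the same way, to 60.4% higher in place of 50.9%.

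**Figure D4:**
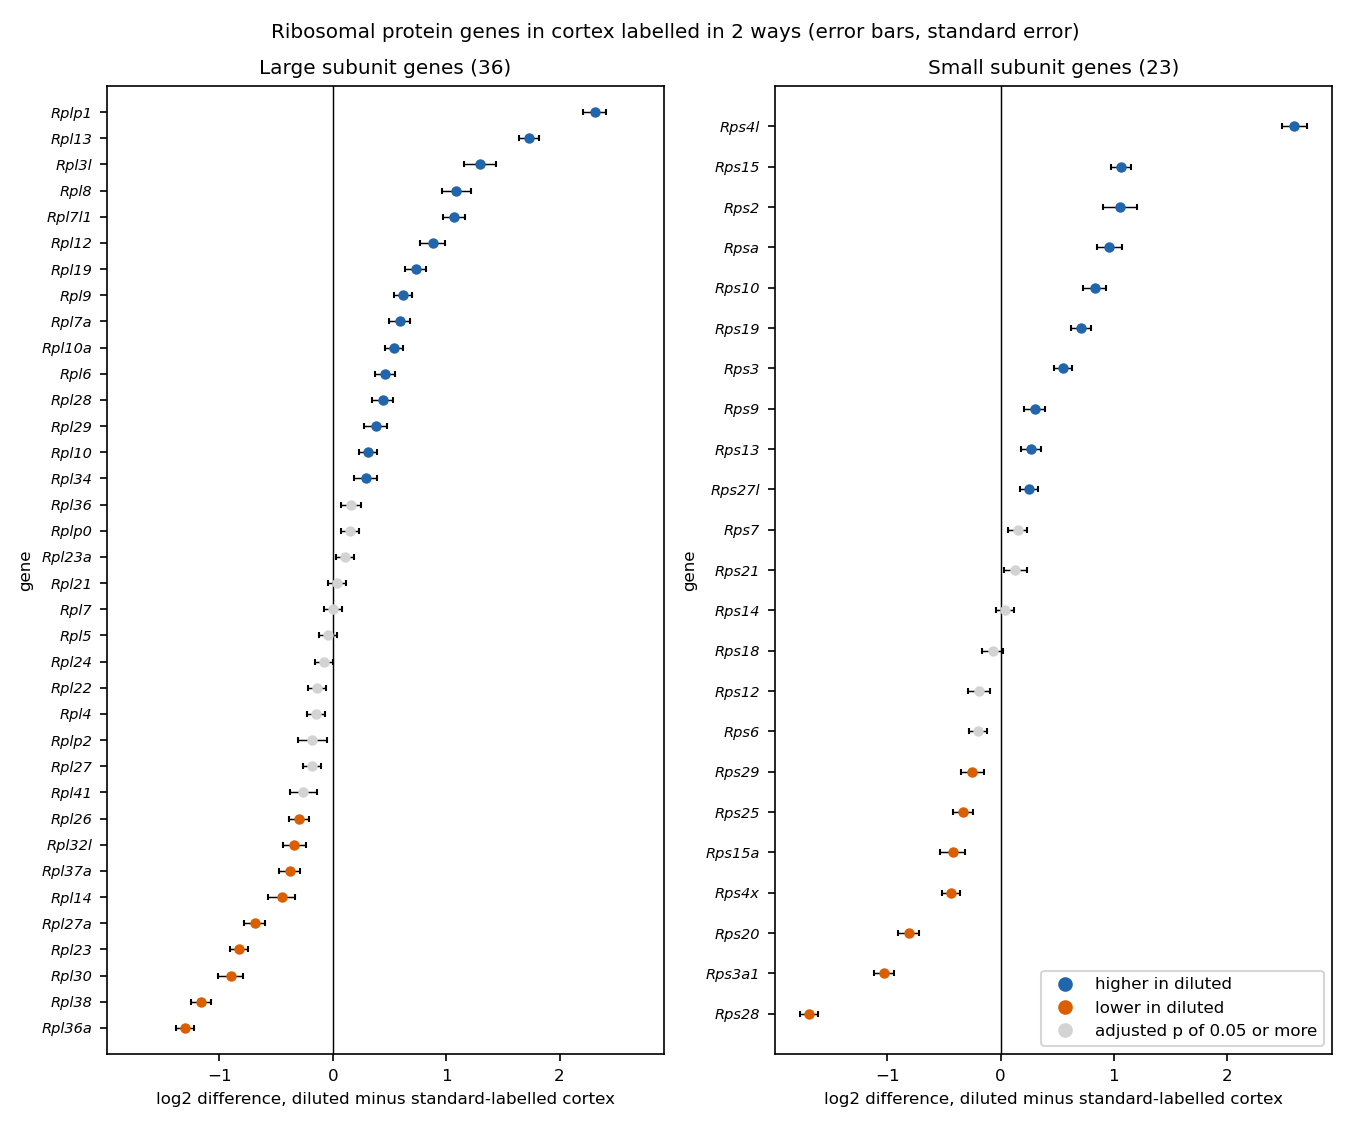
Log2 difference, diluted minus standard-labelled cortex (horizontal axis), of the 36 large and 23 small subunit genes tested (vertical axis), with standard errors from limma, 3 libraries in each group. Colours mark the 25 genes higher and the 16 lower at an adjusted p under 0.05, and the differences run from -1.69 for Rps28 to 2.59 for Rps4l.

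The 5 genes with the highest differences were Rps4l, Rplp1, Rpl13, Rpl3l and Rpl8. Rplp1 averaged 13.53 ± 0.06 in diluted cortex and 11.22 ± 0.14 in standard-labelled cortex (SD, n = 3 each), and rose by 2.31 ± 0.10 (SE, limma, adjusted p = 3.2e-07), which is 4.96-fold. Rps4l averaged 9.94 ± 0.06 in diluted and 7.35 ± 0.16 in standard-labelled cortex and rose by 2.59 ± 0.11 (SE, limma, adjusted p = 2.5e-07). That is its brightest probe set, and the mean over its 2 probe sets rose by 1.85, less than the 2.14 of Rplp1 by the same summary. Rpl13 was at 13.11, 13.13 and 13.12 in diluted cortex and 11.27, 11.53 and 11.37 in standard-labelled cortex and rose by 1.73 ± 0.09 (SE, limma, adjusted p = 1.1e-06). Rpl13 lay between 12.88 and 13.29 in MM cells and between 12.45 and 13.15 in JG cells, and the part of protocol, cell type and scale was not tested. Rpl8 rose by 1.09 ± 0.13 (limma, adjusted p = 0.00011), and Rpl3l rose too (limma, adjusted p = 5e-05). Rpl3l was not above background in any standard-labelled library, with means of 7.10 in diluted and 5.80 in standard-labelled cortex, and against the background level it was at least 1.64-fold higher in diluted cortex.

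The 5 genes with the lowest differences were Rps28, Rpl36a, Rpl38, Rps3a1 and Rpl30. Rps28 was at 11.05, 11.15 and 11.08 in diluted cortex and 12.74, 12.82 and 12.77 in standard-labelled cortex, and fell by 1.69 on the log2 scale (SE 0.08, limma, adjusted p = 5.7e-07). It was at 11.91, 12.14, 13.03 and 12.07 in MM cells and 7.69, 8.31, 12.27, 11.55 and 9.54 in JG cells 4 to 8. All MM values lay above those of diluted cortex, while receptor genes stood 0.81 higher in MM cells. Rpl36a averaged 11.20 ± 0.06 in diluted and 12.50 ± 0.06 in standard-labelled cortex and fell by 1.30 (SE 0.08, limma, adjusted p = 2.8e-06). Rpl38, which in the mouse embryo shapes the translation of Hox genes, averaged 11.24 ± 0.08 in diluted and 12.40 ± 0.06 in standard-labelled cortex and fell by 1.16 (SE 0.09, limma, adjusted p = 7e-06). Rps3a1 fell by 1.03 (SE 0.09, limma, adjusted p = 1.4e-05), and Rpl30 by a measured 0.90 (SE 0.11, limma, adjusted p = 0.00013). Rpl30 lay near background in diluted cortex, at 6.37, 6.26 and 6.46 where background was 6.19 to 6.30. It passed there in 2 of 3 libraries, so the size of its fall is not exact. In a fit of all 15 arrays, in which the cells share in the estimate of the spread, 7 genes were higher and 2 lower. That fit lost 32 of the calls of these genes. Calls over all probe sets fell as well, and their shares by direction were not computed for it.

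Other genes of translation were followed on the same arrays. Of 27 initiation factors on a list, which load the small subunit on the messenger, 22 were measured. Of these, 6 to 18 passed background in MM cells, between 1 and 6 in JG cells and all 22 in every cortex library. Eif3i, of the factor that keeps the subunits apart, was at 12.83, 11.91, 7.04 and 12.73 in MM cells, 6.54, 6.77, 7.03, 6.06 and 11.09 in JG cells 4 to 8, 12.11, 12.13 and 12.16 in diluted cortex and 10.95, 11.13 and 11.03 in standard-labelled cortex. Eif4a1, the helicase that unwinds the start of the messenger, was at 12.40, 12.09, 7.01 and 12.52 in MM cells, 6.05, 5.81, 5.92, 12.25 and 5.59 in JG cells, 11.47, 11.39 and 11.38 in diluted cortex and 10.42, 10.41 and 10.46 in standard-labelled cortex. Each was bright in a single JG cell, Eif3i in cell 8 and Eif4a1 in cell 7, and at background in MM cell 16. Eif3k passed background in 4 JG cells and Eif3f in 2, and every other initiation factor in at most 1.

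Of 12 measured elongation factors and ribosome-bound proteins, 6 to 11 passed background in MM cells, between 4 and 7 in JG cells and 12 in every cortex library. Eef1b2, which recharges the factor that delivers transfer RNA, was at 12.51, 12.36, 10.53 and 12.52 in MM cells, 12.90, 12.99, 12.89, 11.74 and 6.76 in JG cells, 11.88, 11.96 and 11.96 in diluted cortex and 11.93, 11.98 and 11.91 in standard-labelled cortex. It was bright in JG cells 4 and 5 and at background in JG cell 8. Eef2, which moves the ribosome along the messenger, was at 9.34, 12.15, 7.13 and 11.46 in MM cells, 7.04, 7.58, 7.54, 7.44 and 8.09 in JG cells, 11.94, 11.86 and 11.81 in diluted cortex and 11.01, 11.11 and 11.02 in standard-labelled cortex. All JG cells lay far below both cortex groups for Eef2. Of the same list, Eef1a1, Naca and Tpt1 passed background in all 5 JG cells, and Eef1e1, Etf1 and Gspt1 in 0. Fau, whose product carries a further small subunit protein, was between 12.56 and 12.94 in MM cells, 8.47, 13.30, 12.88, 13.05 and 13.37 in JG cells 4 to 8, between 12.11 and 12.34 in diluted cortex and between 11.35 and 11.42 in standard-labelled cortex, so that JG cell 4 was the low array.

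Of 33 measured genes of ribosome assembly, 9 to 17 passed background in MM cells, between 1 and 10 in JG cells, between 28 and 30 in diluted cortex and between 29 and 30 in standard-labelled cortex. Npm1, a nucleolar chaperone of ribosomal proteins, was at 10.14, 10.52, 10.36 and 10.40 in MM cells, 5.11, 5.20, 3.84, 7.87 and 5.14 in JG cells, 9.33, 8.94 and 9.09 in diluted cortex and 10.37, 10.66 and 10.52 in standard-labelled cortex. Every MM cell lay above every JG cell for this gene. Ncl, nucleolin, passed in all 4 MM cells and, at 11.07, in JG cell 8 alone. Eif6 passed in all 5 JG cells, Ubtf in 4 and Nolc1 in 3, and every other gene of the list in at most 2. Of 77 genes of the mitochondrial ribosome, a separate particle, 35 to 60 passed in MM cells, between 14 and 27 in JG cells, 77 in diluted cortex and 76 in standard-labelled cortex. Of 17 measured general genes of structure and metabolism, 15 to 17 passed in MM cells, between 12 and 16 in JG cells and all 17 in the cortex libraries. Each list was read against background on the same array and not against another list, since probe sets of different genes can differ in brightness at equal RNA.

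**Figure D5:**
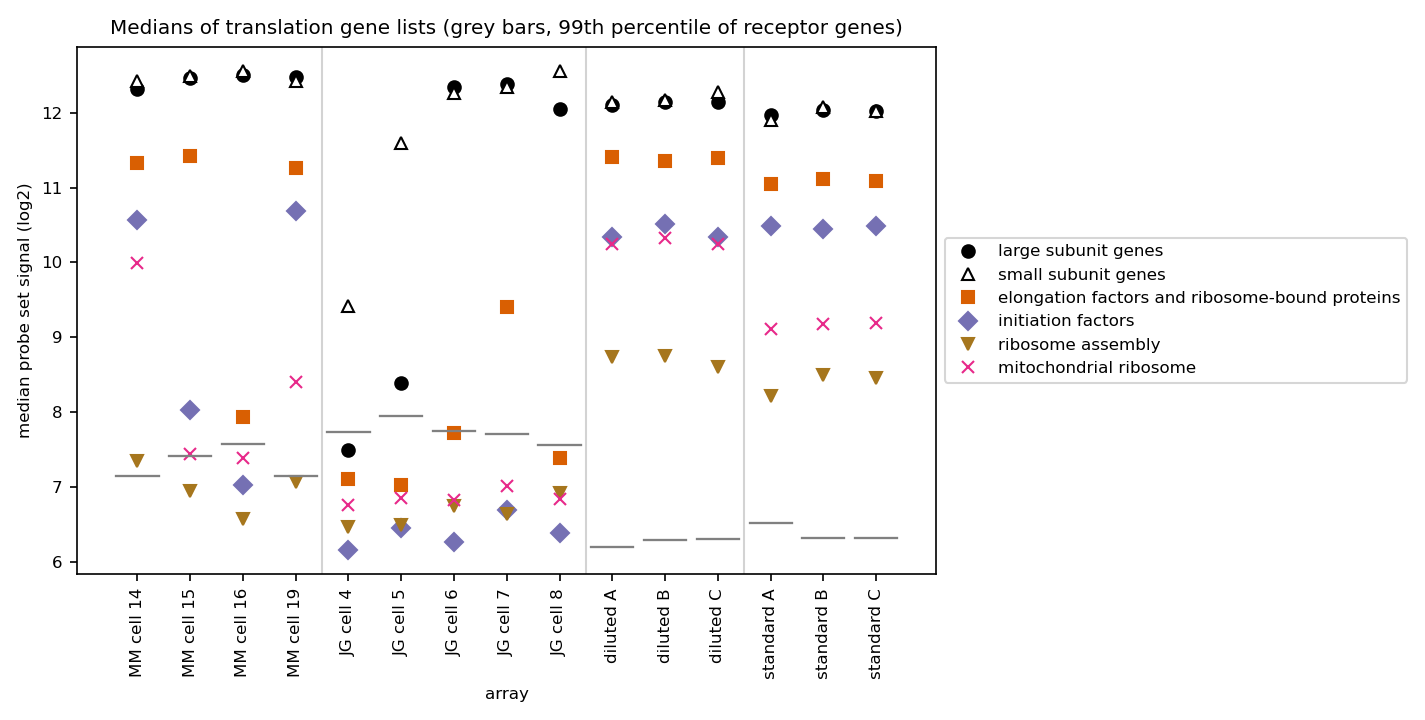
Median probe set signal (log2, vertical axis) on each array (horizontal axis) for large and small subunit genes, elongation, initiation, assembly and mitochondrial ribosome genes, with grey bars at the 99th percentile of receptor genes. In JG cells the medians of the initiation, assembly and mitochondrial ribosome lists lie below the bar of the array in all 5 cells. The small subunit median lies above the bar in all 5 and the large subunit median in 4.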

How the data were processed

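Gene expression was measured on 15 Affymetrix MoGene 1.0 ST arrays. Values are log2 probe set signals, used as deposited; the submitters' processing notes name Affymetrix Expression Console. How it summarised or normalized the probes, and in which version, is not given in the sources used here. The table holds 35557 probe sets with values of 2.22 to 13.98. An array has no count depth, and the number of arrays limits the precision.

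The platform annotation lists 23410 probe sets, 21789 with 1 symbol and 1621 with several, and leaves 12147 unnamed. The 61 genes have 217 probe sets, 22 genes with 1 and the others with up to 14. Another 237 probe sets name a ribosomal protein gene beside other genes and were left out, and 17 ribosomal protein symbols occur there only (among them Rpl3, Rpl11, Rpl32, Rps24 and Rps27). Many ribosomal protein genes have processed pseudogenes, whose signal probe sets may share.

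Background is the 99th percentile of receptor genes on the same array, and bright means 10 or more. Where a gene was not above background on any array of a group, its fold is a bound, taken against the background level of those arrays (or its own value, if higher). Cell groups were compared by differences of group means, counted from 1 log2 unit. A gene entered if its higher group mean reached the median of the arrays compared. The cortex groups were compared with limma 3.58.1 (lmFit, eBayes, Benjamini-Hochberg) in R 4.3.3 over all probe sets, with the same filter and an adjusted p under 0.05. The script was tested on simulated data. Other values came from Python 3.11.15, numpy 2.4.6, pandas 2.3.3 and matplotlib 3.10.9. The members, the gene lists, the thresholds and the tests were chosen with earlier results of these data known. Named by rule were the 5 highest and 5 lowest genes of each comparison, the brightest, dimmest and most variable, those above background in every JG cell or in none, the role groups and paralogues, and up to 6 genes of each translation list with the largest difference between a JG cell and diluted cortex. Fau, and genes listed for single JG cells or by the number of JG cells at background, were named after their values were seen. So were translation genes given only by the number of JG cells in which they passed. Deviations of same-lettered cortex libraries from their group means correlated at 0.0893, 0.0702 and 0.0205, so the letters were not taken to pair them. Alternatives were other scalings, filters, summaries, variance models, the letter as a block and each array left out. Leaving out JG cells 4 and 5, other background percentiles and other brightness levels were added after seeing the data.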

Additional observations from a re-analysis of the deposited data

Results flagged for a closer look

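Within the groups of cells, 126 sets of values (61 genes and the medians of both subunits, in MM cells and in JG cells) were checked for an array that lies far from the rest, by Dixon's ratio of the gap to the range. There were 24, of them 9 in JG cell 4 and 5 in JG cell 5. Chance gives about 1 in 20 only for independent sets of normal values. These sets share arrays, and many of the genes at background in a single JG cell meet the criterion. The number is therefore no evidence beyond the states given above. No explanation was tested for any of them.

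In JG cell 4, Rpl7 was at 5.76, Rps20 at 5.96, Rps3 at 6.73, Rpl19 at 7.15, Rps18 at 7.41 and Rpl27a at 8.50, and Rpsa, the laminin receptor homologue of the small subunit, at 9.42. The medians of the other 4 JG cells were 12.39, 12.39, 11.74, 12.55, 13.07, 12.28 and 12.41 in the same order. Rplp1 was at 12.86 in JG cell 4 and 13.48 to 13.62 in the others, and Rps4l was high there, at 9.33 against 7.65 to 8.01.

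In JG cell 5, Rps29 was at 6.19, Rpl7a at 7.44, Rpl24 at 7.53, Rps6, the small subunit protein phosphorylated by S6 kinases, at 7.62 and Rpl37a at 8.38. The medians of the other 4 JG cells were 12.67, 12.35, 12.58, 12.60 and 13 in the same order. In JG cell 7, Rps27l was high, at 11.69 against 5.53 to 7.09, and Rpl29 was at 11 against 11.63 to 11.88. In JG cell 8, Rplp0 was at 6.93 against 13.22 to 13.30 and Rpl28 at 7.91 against 12.53 to 13.26.

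In MM cell 14, Rpl12 was at 10.48 against 5.79 to 6.48 in the other MM cells, and the median of the large subunit genes was 12.32 against 12.47 to 12.50. In MM cell 15, Rps4l was at 9.62 against 11.86 to 12.20. In MM cell 16, Rpl5 was at 11.08 against 12.51 to 12.74, Rpl29 at 10.36 against 11.36 to 11.57 and Rpl41 at 13.06 against 12.86 to 12.88.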

How the results depend on the processing

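The JG comparisons changed with the arrays used and with the scale. JG minus diluted cortex gave medians of 0.13 (large) and 0.08 (small) with 8 genes lower under group medians, and 0.09, 0.17 and 11 without JG cells 4 and 5, left out after their low values were seen. Receptor scaling gave 45 lower and 0 higher, with Rpl32l at -0.03, and array median scaling 1 higher. MM minus diluted cortex gave medians of -0.52 and -0.61 with 0 higher and 10 lower under receptor scaling, -0.04 and -0.13 with 1 and 4 under array median scaling, and 0.20 and 0.10 with 9 and 2 under quantile normalization. MM minus JG gave a large subunit median of -0.04 with 9 higher and 0 lower under group medians, and a small subunit median of -0.10 with 14 higher without JG cells 4 and 5. There, 0 genes were lower under receptor and array median scaling and 4 under quantile normalization. In cortex, medians were 0.12 (large) under receptor scaling and 0.25 and 0.31 under array median scaling, which left 9 genes lower. A fit of all 15 arrays called 7 genes higher, 2 lower and 7451 of 19531 probe sets, whose split by direction was not computed. The main fit called 7430 probe sets higher and 7169 lower. At the 95th receptor percentile, 14, 11, 4, 1 and 1 of the 50 genes were at background in JG cells 4 to 8. Those were 28%, 22%, 8%, 2% and 2%, against 72.7%, 70.8%, 67.9%, 56.1% and 65.4% of all 1332 genes. Against the highest receptor there were 5 in JG cell 8, 10%, where 85.7% of all genes were. Among genes at 11 or more in standard-labelled cortex there was 1 in JG cell 7, 2.17% of 46, against 57.3% of all 609 genes. The causes were not tested, and shares over all genes were not computed for the alternative counts of the cell comparisons. With each array left out in turn, genes lower in MM cells than in diluted cortex numbered 1 to 3, and those lower in MM than in JG cells 0 to 1. The JG minus diluted medians then ran from -1.12 to -0.62 (large) and -1.15 to -0.39 (small), and the genes called in cortex from 21 to 25 higher and 14 to 17 lower. The replicate block by library letter gave 25 higher and 16 lower and changed no call of these genes.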
